A study of Mus musculus with 18 samples.

Results

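Bone morphogenetic proteins (BMPs) are secreted ligands that bind a pair of serine/threonine kinase receptors, one of type I and one of type II. The type I receptor then phosphorylates SMAD1, SMAD5 and SMAD9, which enter the nucleus with SMAD4 and switch on a short list of direct targets. Among these targets are the Id genes, whose products hold E proteins away from DNA, and the inhibitory Smad6 and Smad7, which feed back on the receptors. In the gut, BMP signalling is known to be low at the crypt base and to rise towards the lumen, and antagonists from the cells around the crypt base shield the stem cells from it.

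A set of 9 genes of this pathway were followed here by their symbols, and all 9 were found among the 43346 genes of the count tables. They are the ligand gene Bmp2, the type I receptor genes Bmpr1a and Acvr1, the type II receptor gene Bmpr2, the targets Id1, Id2 and Id3, and the inhibitory Smad6 and Smad7. RNA was sequenced from Lgr5+ cells of small intestine (SI) and large intestine (LI) crypts, sorted as EPCAM-positive cells by their GFP level. High GFP stands for the crypt centre, medium for the border and low for the cells beyond it (row >3), with 3 replicates in each of the 6 groups and 18 libraries in all. All mice were untreated C57BL/6 animals of 8 to 20 weeks by the labels. They carried the Lgr5eGFP-Ires-CreERT2 allele, in which the Lgr5 gene itself drives GFP. The labels set the 6 groups apart by site and GFP level only. The fluorescence of this allele is patchy between crypts, the staining buffer held Noggin, a BMP antagonist, and R-spondin1 for every library, and the mouse behind each replicate number is not given in the sources used here.

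Total counts per library ran from 8312093 to 31940965, with a median of 21934851, and the 9 genes had between 29 and 2345 raw counts in each library. Lgr5 followed the sort, with 2434 to 5252 normalised counts in SI centre and 28.1 to 279.6 in SI row >3 cells, and with 2176 to 2575 in LI centre and 134 to 466 in LI row >3 cells. In SI border cells replicate 3 had 157, below replicates 1 and 2 of SI row >3. A normalised count is the raw count divided by the size factor of its library. The epithelial marker Epcam lay between 14653 and 24706 in every library, and the summed levels of 7 stromal and endothelial markers stayed at or below 239. The 3 libraries of SI replicate 3 stood apart. The summed level of 5 stem cell markers (Lgr5, Ascl2, Smoc2, Olfm4 and Axin2) was 28899 normalised counts in their centre, 3076 in their border and 1161 in their row >3 library. In the other replicates it was 102051 to 106378 in SI centre, 38242 to 71201 in SI border and 6969 to 12883 in SI row >3 cells. Calls among the 9 genes in contrasts that involve SI libraries are therefore also given without these 3. For the further gene lists this is done for some genes only.

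Read per kilobase of exon, which allows levels of different genes to be compared, Id1 was the most abundant of the 9 with a median of 418 normalised counts per kilobase over the 18 libraries. Bmpr1a followed with 239 and Smad7 with 107, Id3 and Bmpr2 lay close together at 80.7 and 80.5, and Id2 had 70.4. Acvr1 with 57.5, Smad6 with 43.8 and Bmp2 with 30.4 were the lowest. This order over all libraries did not hold in each group. In SI row >3 cells Bmp2 had a mean of 136 per kilobase, above Acvr1 at 80.4 and Smad6 at 58. The genes also differed in how much they varied. Bmp2 spanned 22.9-fold from its lowest to its highest library, the targets Smad6, Id3, Id1, Smad7 and Id2 spanned 6.16-, 5.48-, 5.27-, 4.46- and 3.08-fold, and the receptors Acvr1, Bmpr1a and Bmpr2 only 2.07-, 1.86- and 1.81-fold.

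**Figure D1:**
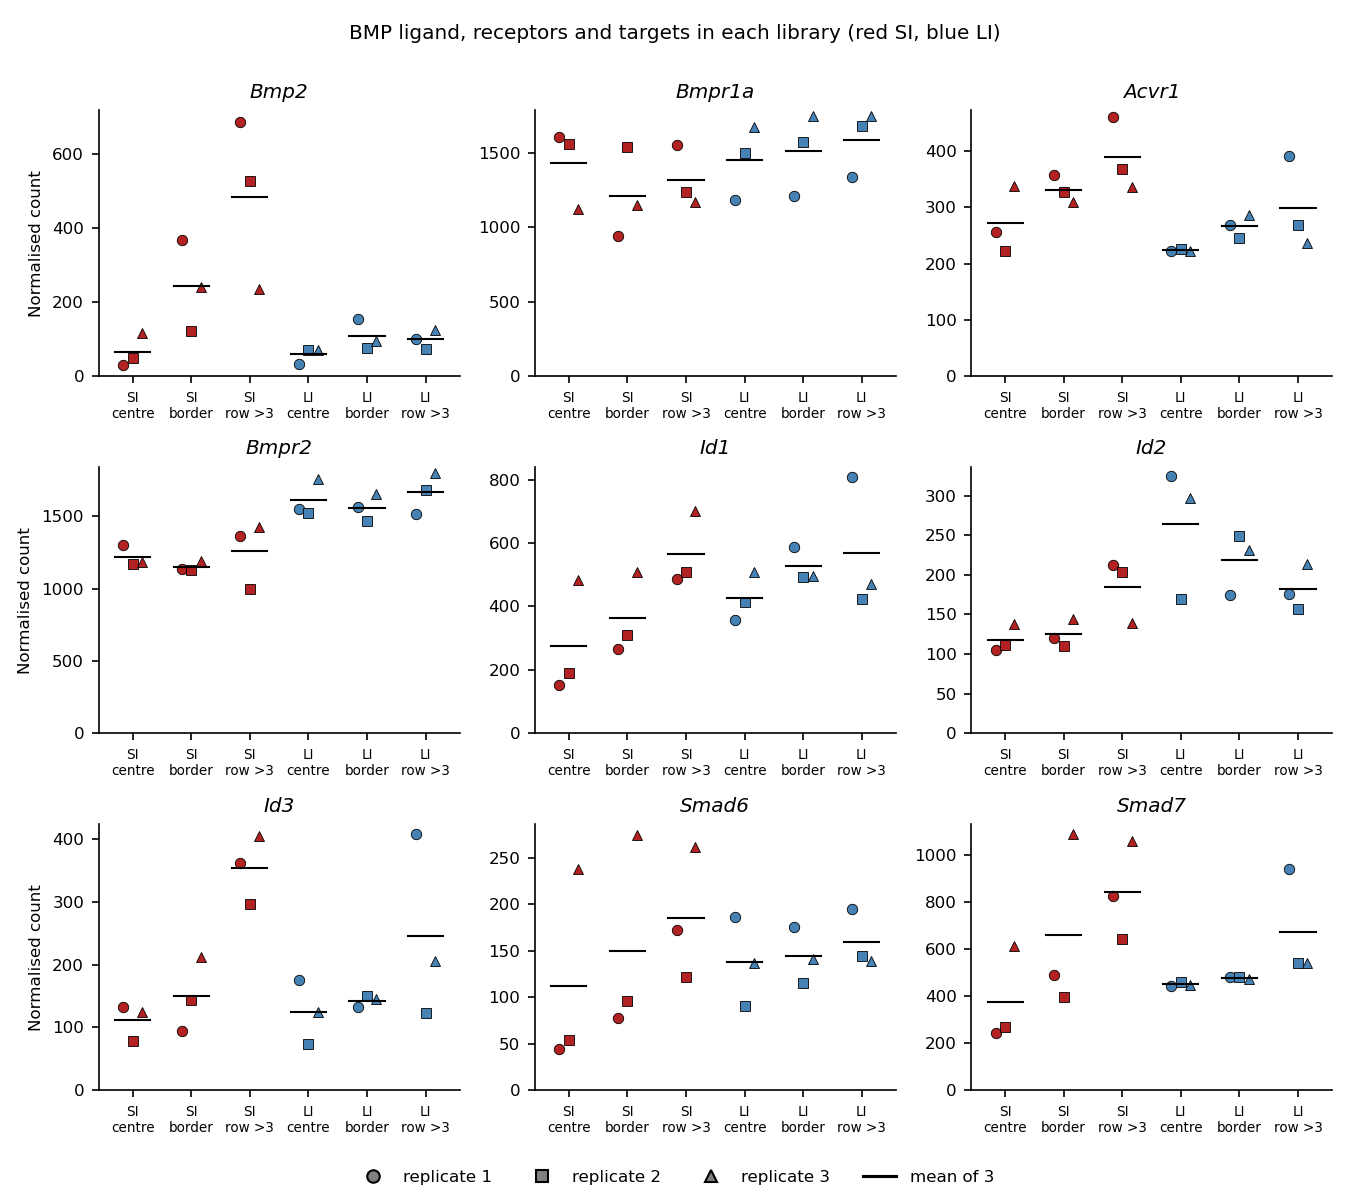
Normalised counts (vertical axes, linear, from 0) of the 9 genes in each of the 18 libraries, by site and Lgr5 level, with symbols for the replicate numbers and a line at the mean of 3. Bmp2 reached 237 to 687 in SI row >3 cells and at most 154 in the LI, while Bmpr2 lay lower in all SI than in all LI groups.

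Bmp2 encodes a BMP ligand and lies at chr2:133552159-133562885 (GRCm38, plus strand). It had 30, 48.8 and 116 normalised counts in SI centre cells of replicates 1, 2 and 3. In SI border cells it had 368, 123 and 241, and in SI row >3 cells 687, 529 and 237. Both sets lay above all 3 centre libraries, and the rise was steepest in replicates 1 and 2, since replicate 3 started higher in the centre and was lowest in row >3. In the LI the gene had 34.1, 72.2 and 72 in centre, 154, 76.1 and 96 in border and 100.2, 74.4 and 124 in row >3 cells, a far narrower range.

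Row >3 was compared with centre to ask how the genes change as cells leave the Lgr5-high zone. For each gene this contrast was tested with edgeR's quasi-likelihood test, and genes with an adjusted p under 0.05 (Benjamini-Hochberg, over the 26717 genes tested) are named as called. In the SI, 2 of the 9 genes were called, both higher in row >3, while 7.35% of all genes tested were called higher and 5.82% lower. Bmp2 rose 7.59-fold in row >3 cells, a log2 fold change of 2.92 with a standard error of 0.48 (adjusted p = 0.000503). In 5 of the 9 genes all row >3 libraries lay above all centre libraries, against 12.8% of all genes tested, and none lay wholly below. The median log2 fold change of the 9 was 0.71, and that of all genes tested was 0.00. All genes tested include genes with almost no counts, while the 9 had at least 29 raw counts in every library. With a stricter filter on counts (filterByExpr), 14.2% of the 15998 genes kept were called higher and 11.6% lower.

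In the LI none of the 9 genes was called by edgeR between row >3 and centre, nor by DESeq2, and 1 (Id3) had an unadjusted p under 0.05, as did 6.96% of all genes tested. In this edgeR fit of all libraries calls were rare altogether, at 0.0187% of all genes tested. The log2 fold change of Bmp2 was 0.70 with a standard error of 0.50 (adjusted p = 0.911), although its 3 LI row >3 libraries lay above its 3 centre libraries, as did those of Acvr1 and Smad7. All row >3 libraries lay above the centre for 7.57% of all genes in the LI. The median log2 fold change of the 9 was 0.40, beside 0.00 for all genes. The share of all genes called in this LI contrast changed with the fit. Adjusting for replicate number, separately in SI and LI, gave 1.28% called higher and 1.31% lower, with none of the 9 among them. With only the LI groups compared in the fit these shares were 0.542% and 0.487%, and with filterByExpr both were 0%.

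**Figure D2:**
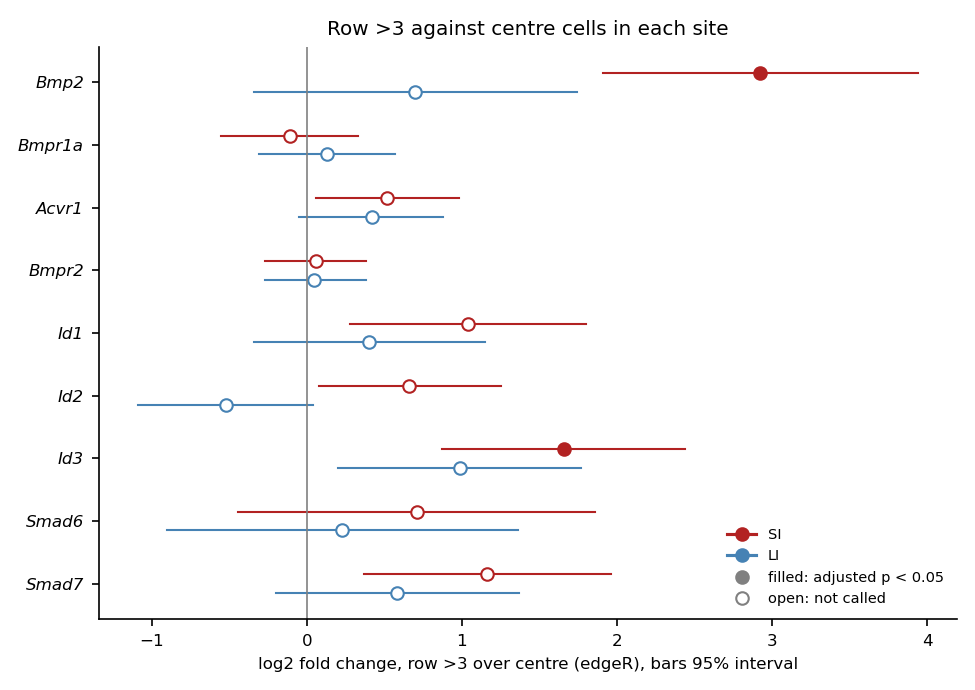
Log2 fold change of row >3 over centre (horizontal axis) for each of the 9 genes in SI (red) and LI (blue), with 95% intervals from edgeR. Bmp2 at 2.92 and Id3 at 1.66 in the SI are the filled, called points, and the SI and LI intervals are apart for Bmp2 and Id2 and overlap for the other 7 genes.

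The 3 receptor genes had the narrowest ranges over the 18 libraries. Bmpr1a, the main type I receptor for BMP2 and BMP4 (chr14:34410734-34503341, minus strand), had 1608, 1560.0 and 1120.0 normalised counts in SI centre, 939.7, 1538 and 1152 in SI border and 1549, 1236 and 1169 in SI row >3 cells. In the LI it had 1179.7, 1497 and 1670.2 in centre, 1207, 1571 and 1746 in border and 1334, 1679 and 1745 in row >3 cells. Every pair of neighbours in the order of the 6 group means overlapped. The log2 fold change of row >3 over centre was -0.11 in the SI (95% interval -0.55 to 0.33, adjusted p = 0.842 by edgeR) and 0.13 in the LI (-0.31 to 0.57, adjusted p = 0.969).

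Bmpr2, the type II receptor (chr1:59763400-59879014, plus strand), had 1306, 1168 and 1186 normalised counts in SI centre, 1138, 1129 and 1191 in SI border and 1367, 997 and 1428 in SI row >3 cells. Its LI values were 1550.2, 1527 and 1760.1 in centre, 1566, 1466 and 1653 in border and 1520.3, 1682 and 1802 in row >3 cells. Hence no SI library reached any LI library. Between row >3 and centre the log2 fold change was 0.06 with a standard error of 0.16 in the SI (adjusted p = 0.946 by edgeR) and 0.05 with a standard error of 0.16 in the LI (adjusted p = 1), and with total counts as the only scaling it turned to -0.16 and -0.064.

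Acvr1, the type I receptor also called ALK2 (chr2:58388644-58567157, minus strand), had 257, 223 and 338 normalised counts in SI centre, 357, 327 and 309 in SI border and 461, 369 and 336 in SI row >3 cells. In the LI it had 222, 226 and 223 in centre, 269.6, 246 and 286 in border and 392, 268 and 237 in row >3 cells. The SI groups of row >3 and centre overlapped through replicate 3 alone, which went from 338 to 336. Its log2 fold change was 0.52 with a standard error of 0.22 in the SI (adjusted p = 0.144 by edgeR) and 0.42 with a standard error of 0.22 in the LI (adjusted p = 0.771). In the LI the border libraries, too, lay wholly above the centre, with a log2 fold change of 0.25 and a standard error of 0.23 (adjusted p = 1).

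The ID and inhibitory SMAD genes are the pathway's own readouts, and the sequence around their start sites is shown for the 3 that RefSeq's GRCm38.p6 promoter windows cover. In all, 6 of the 9 genes had such a window, of 250 bases before and 50 after the start. In total 3 motifs that SMAD proteins are known to bind were searched on both strands over all 32851 windows, the palindrome GTCTAGAC, the GC-rich GGCGCC and the SMAD box CAGAC, which do not contain one another. The stretches from 250 bases before to 10 bases after the start are at chr9:64022050-64022309 (minus strand) for Smad6, chr4:136143572-136143831 (plus strand) for Id3 and chr12:25096083-25096342 (minus strand) for Id2, and capitals mark the motif matches.
Smad6: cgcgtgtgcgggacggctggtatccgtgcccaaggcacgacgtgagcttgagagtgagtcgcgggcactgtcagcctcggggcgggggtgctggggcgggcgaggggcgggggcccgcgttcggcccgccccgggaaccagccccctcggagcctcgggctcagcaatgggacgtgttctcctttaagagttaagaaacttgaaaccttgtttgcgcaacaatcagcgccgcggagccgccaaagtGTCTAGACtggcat
Id3: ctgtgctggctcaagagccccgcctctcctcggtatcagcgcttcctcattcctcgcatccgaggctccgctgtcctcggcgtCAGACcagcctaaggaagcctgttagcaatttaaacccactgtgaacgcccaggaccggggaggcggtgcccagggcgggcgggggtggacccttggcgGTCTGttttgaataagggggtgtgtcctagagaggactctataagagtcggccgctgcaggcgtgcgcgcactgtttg
Id2: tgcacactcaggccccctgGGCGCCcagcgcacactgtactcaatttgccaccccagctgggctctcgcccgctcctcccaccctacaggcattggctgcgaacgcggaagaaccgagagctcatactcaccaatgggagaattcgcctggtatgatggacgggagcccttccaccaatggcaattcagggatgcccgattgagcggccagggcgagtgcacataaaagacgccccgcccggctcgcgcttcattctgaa
Smad6 held 1 GTCTAGAC, which began 4 bases before the start and which 0.213% of all windows hold. Id3 held CAGAC at 167 bases and, on the other strand, at 68 bases before the start, a motif in 49.6% of all windows. Id2 held 1 GGCGCC at 231 bases before the start, found in 11.9% of all windows, and Bmpr1a and Bmpr2 held 1 each as well, at 198 and 105 bases. Acvr1 had no match of the 3 motifs. A match of letters is a description and no measure of binding.

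Id3 (chr4:136143497-136145755, plus strand) encodes an inhibitor of E proteins. It had 132, 79.2 and 125 normalised counts in SI centre, 94.4, 144 and 212 in SI border and 362, 296 and 404 in SI row >3 cells. All 3 row >3 libraries of the SI lay above the other 6 SI libraries, and SI replicate 3 behaved like the other replicates. It rose 3.15-fold from centre to row >3 cells, a log2 fold change of 1.66 with a standard error of 0.38 (adjusted p = 0.00492 by edgeR). In the LI it had 176, 74.3 and 125 in centre, 133, 149.7 and 145 in border and 407, 123 and 206 in row >3 cells. There the log2 fold change was 0.99 with a standard error of 0.38 (adjusted p = 0.587), and without the highest library, LI row >3 of replicate 1, it was 0.42.

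Id1 (chr2:152736251-152737410, plus strand), an E protein inhibitor of the same family, had 153, 189 and 482 normalised counts in SI centre, 267, 309.8 and 510.2 in SI border and 488, 510.2 and 702 in SI row >3 cells. Within each replicate number the level climbed from centre to border and from border to row >3, yet SI centre of replicate 3 nearly reached the row >3 cells of replicate 1. The log2 fold change was 1.04 with a standard error of 0.36 (adjusted p = 0.0671 by edgeR). In the LI the values were 358, 414 and 509 in centre, 588, 493 and 497 in border and 807, 424 and 471 in row >3 cells, with a log2 fold change of 0.40 and a standard error of 0.36 (adjusted p = 0.967). Without LI row >3 of replicate 1 this LI value was 0.077.

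Id2 (chr12:25093799-25097140, minus strand) encodes a further inhibitor of this family. Its log2 fold change in the LI was negative and those of Id1 and Id3 were positive, but none of these was called. It had 105, 111 and 138 normalised counts in SI centre, 120.4, 110.2 and 144 in SI border and 212, 203 and 139 in SI row >3 cells. In the LI it had 325, 169 and 297 in centre, 174, 249.5 and 231 in border and 176, 157 and 213 in row >3 cells. In the SI the row >3 libraries lay above the centre by the narrowest margin, 139 against 138 in replicate 3, with a log2 fold change of 0.66 and a standard error of 0.28 (adjusted p = 0.138 by edgeR). In the LI the log2 fold change was -0.52 with a standard error of 0.27 (adjusted p = 0.758), and the groups overlapped.

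Smad7 (chr18:75367529-75395935, plus strand), which blocks type I receptors of both the BMP and the TGF-beta branch, had 244, 271 and 614 normalised counts in SI centre, 491, 398 and 1089 in SI border and 826, 641 and 1060.0 in SI row >3 cells. The 3 row >3 libraries lay above the 3 centre libraries, with the closest approach between 641 in replicate 2 and 614 in replicate 3. The log2 fold change was 1.16 with a standard error of 0.38 (adjusted p = 0.0507 by edgeR). In the LI the values were 445, 458 and 447 in centre, 481, 480.3 and 471 in border and 939, 541 and 541 in row >3 cells. Neither the border nor the row >3 libraries overlapped the centre there, with log2 fold changes of 0.08 and 0.58, standard errors of 0.37 each and adjusted p = 1 and 0.868.

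Smad6 (chr9:63953076-64022059, minus strand), which blocks BMP receptors more than those for TGF-beta, had 44.6, 54.3 and 238 normalised counts in SI centre, 77.9, 95.9 and 275 in SI border and 173, 122 and 262 in SI row >3 cells. Each replicate number was higher in row >3 than in centre, but the spread between replicate 3 and the others was wider than that rise. The log2 fold change was 0.71 with a standard error of 0.55 (adjusted p = 0.519 by edgeR). In the LI the values were 186, 91.1 and 137 in centre, 176, 115 and 141 in border and 195, 144 and 139.6 in row >3 cells, with a log2 fold change of 0.23 and a standard error of 0.54 (adjusted p = 1).

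Libraries with the same replicate number deviated together within each site, as given with the processing, so the SI contrast was also fitted with the replicate number as a block. With this block 5 of the 9 genes were called higher in SI row >3 cells, against 12.4% of all genes tested. Beside Bmp2 and Id3 these were Id1 at 1.18 (adjusted p = 0.000558), Smad7 at 1.27 (adjusted p = 6.27e-05) and Smad6 at 0.96 (adjusted p = 0.0155), all log2 fold changes by edgeR. Without the 3 SI replicate 3 libraries, and without the block, 7 of the 9 genes were called higher, against 9.97% of all genes tested. Smad6 then rose by 1.59 (adjusted p = 0.00397), Smad7 by 1.52 (adjusted p = 7.86e-05), Id1 by 1.55 (adjusted p = 0.000251), Id2 by 0.95 (adjusted p = 0.0398) and Acvr1 by 0.80 (adjusted p = 0.0241). Bmp2 reached 3.97 (adjusted p = 1.45e-06), or 3.64 when SI centre replicate 3 alone was left out. Id3 stayed at 1.63 (adjusted p = 0.0105). Bmpr1a at -0.18 and Bmpr2 at -0.059 were called in none of these fits.

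**Figure D3:**
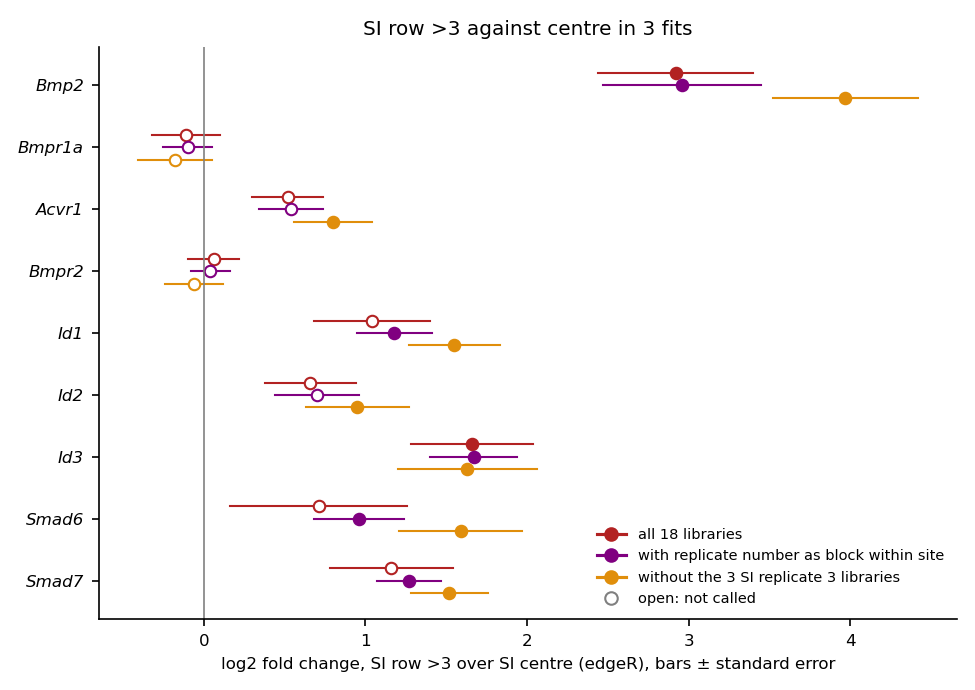
Log2 fold change of SI row >3 over SI centre (horizontal axis, bars ± standard error) for the 9 genes in 3 edgeR fits, with open circles where a gene was not called. Bmp2 moved from 2.92 with all 18 libraries to 3.97 without SI replicate 3, and Smad6 from 0.71 to 0.96 with the replicate block and 1.59 without SI replicate 3, while Bmpr1a and Bmpr2 stayed near 0.

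Marker sums of several differentiated cell types differed across the same contrast, not all in the same direction. The summed normalised counts of 5 goblet cell markers, led by the mucin gene Muc2, ran from 12698 to 195733 in SI centre and from 602581 to 1000934 in SI row >3 cells, and from 120122 to 191098 and 269929.7 to 449569 in the LI. Those of 6 absorptive markers ran from 1350.0 to 3808 in SI centre and from 11749 to 26626 in SI row >3 cells, and from 1217 to 1550.2 and 2509.6 to 3252 in the LI. Enteroendocrine markers (4 genes) were higher in SI row >3 than in SI centre cells in each replicate number, with 6553, 9631 and 768 against 917, 5118 and 58.8. Paneth cell markers (6 genes) were higher in SI row >3 cells in replicate 1, with 74073 against 40202, but lower in replicates 2 and 3, with 109497 against 187065 and 4619 against 45706. Tuft cell markers (4 genes) were higher in replicates 1 and 2, with 6418 against 528 and 6998 against 684, but lower in replicate 3, with 1613 against 7695. Enteroendocrine sums of LI centre and LI row >3 overlapped, as did those of tuft cell markers, and Paneth cell markers stayed at or below 245 in the LI. SI centre of replicate 3, the library with the highest Id1, Smad6, Smad7 and Bmp2 of its group, was also the highest of its group in goblet markers at 195733, against 12698 and 21183 in the other replicates, and in 4 tuft cell markers at 7695, against 528 and 684. In LI row >3 the library with the highest Id1, Id3, Smad6 and Smad7, replicate 1, had the highest sum of goblet markers at 449569, against 269929.7 and 408609, and of 10 immediate-early genes at 94961, against 67336 and 54670.5. SI row >3 differed from this. There replicate 3 had the highest Id1, Id3, Smad6 and Smad7 but the lowest goblet sum, at 602581 against 1000934 and 678738. Its tuft cell sum was also the lowest, at 1613, while its immediate-early sum was the highest, at 30192 against 23223 and 23359. The part of cell type and of stress response in these differences was not tested, and in bulk samples more cells of a type and more RNA per cell cannot be told apart.

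Border was compared with centre to ask whether the genes differ inside the Lgr5+ zone. In the SI none of the 9 genes was called by edgeR, 2 (Smad7 and Bmp2) had an unadjusted p under 0.05, as did 8.98% of all genes, and DESeq2 called 1, Bmp2, where it called 0.644% of all genes higher. By edgeR calls were few among all genes as well, at 0.0112%. Bmp2 was the 1 gene of the 9 whose border libraries all lay above the centre, as 4.15% of all genes did, with a 3.67-fold higher level, a log2 fold change of 1.88 and a standard error of 0.49 (adjusted p = 0.206). Without the SI replicate 3 libraries the Bmp2 value was 2.51 (adjusted p = 0.0141, with 0.905% of all genes called higher). With the replicate block the gene called was Smad7, at 0.81 (adjusted p = 0.0439, with 1.55% of all genes called higher). Bmp2 then had adjusted p = 0.109. Absorptive marker sums ran from 4532 to 15700.5 in SI border and from 1350.0 to 3808 in SI centre cells, while goblet, Paneth, enteroendocrine and tuft cell sums overlapped. SI border replicate 1, the highest of its group in Bmp2, was also the highest in tuft cell markers, at 16963 against 5359 and 8049.6. The part of cell type here was not tested. In the LI none of the 9 was called by edgeR or DESeq2, as no gene at all was called by edgeR (0%), and none had an unadjusted p under 0.05, when 1.38% of all genes did. Bmp2, Acvr1 and Smad7 lay wholly above the LI centre, against 2.89% of all genes, and the Bmp2 log2 fold change was 0.83 with a standard error of 0.50 (adjusted p = 1).

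SI was compared with LI at each Lgr5 level to ask how far the site sets the level of these genes. In centre cells 1 of the 9 was called by edgeR, against 0.805% of all genes called lower. This was Id2, at 0.434 times its LI level, a log2 fold change of -1.21 with a standard error of 0.28 (adjusted p = 0.0246), and all 3 SI libraries lay below all LI libraries. The Id2 call held in 9 of 16 alternatives, with adjusted p up to 0.316, and was lost without SI centre replicate 1 or 2 or LI centre replicate 1 or 3, while the value ran from -1.43 to -1.05 when 1 library was left out. Id2 and Bmpr2 lay wholly below, as did 8.65% of all genes. In border cells none was called by edgeR, when 1.75% of all genes were, 3 (Bmpr2, Id2 and Bmp2) had an unadjusted p under 0.05, as did 13.9% of all genes, and DESeq2 called 1, Bmpr2, where it called 1.64% of all genes lower. Id2 and Bmpr2 lay wholly below the LI in border cells, against 7.62% of all genes, and Acvr1 wholly above, against 7.34%. The Id2 value there was a log2 fold change of -0.85 with a standard error of 0.29 (adjusted p = 0.152), and that of Acvr1 was 0.24 with a standard error of 0.23 (adjusted p = 0.767). In row >3 cells the SI and LI libraries of Id2 overlapped.

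In row >3 cells the gene called was Bmp2, 4.74-fold higher in the SI with a log2 fold change of 2.25 and a standard error of 0.46 (adjusted p = 0.00722 by edgeR), where 2.76% of all genes were called higher. The Bmp2 call held in 13 of 16 alternatives, with adjusted p up to 0.181, and was lost without the replicate 2 libraries, without SI row >3 replicate 1 and without LI row >3 replicate 2. Its lowest SI library had 237 and its highest LI library 124 normalised counts, and 10.2% of all genes lay wholly above the LI in this way, against 7.34% wholly below. In centre cells, by contrast, the Bmp2 log2 fold change between the sites was 0.02 (95% interval -1.06 to 1.10). Bmpr2 lay below the LI at every level. Its log2 fold change was -0.46 in centre cells, -0.50 at the border and -0.46 beyond it, with standard errors of 0.16 each and adjusted p = 0.146, 0.12 and 0.121 by edgeR. Once replicate numbers were blocked across both sites, it was called at the border (adjusted p = 0.0476, with 1.97% of all genes called lower) and in row >3 cells (adjusted p = 0.047, with 3.03%).

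In the centre, the site difference of Id2 was called with and without SI replicate 3. Those of Id1, Smad6 and Smad7 were not called with all libraries. Without the 3 SI replicate 3 libraries 4 of the 9 genes were called lower in SI than in LI centre cells, against 6.39% of all genes called lower. These were Id1 at -1.35, Id2 at -1.29, Smad6 at -1.47 and Smad7 at -0.83, all log2 fold changes by edgeR. In border cells the gene called was then Id1 at -0.89, with 4.4% of all genes called lower. In row >3 cells Bmp2 was called at 2.62 and Bmpr2 at -0.50, with 6.8% of all genes called higher and 5.36% lower. Sums of the 10 immediate-early genes ran from 14219.5 to 30192 over the SI and from 49955 to 94961 over the LI libraries, and the part of that difference was not tested.

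Whether row >3 cells differ from centre cells more in the SI than in the LI was tested as an interaction. None of the 9 genes was called by edgeR, as was none of all genes (0%), nor by DESeq2, and 2 of the 9, Id2 and Bmp2, had an unadjusted p under 0.05, as did 6.74% of all genes. For Bmp2 the log2 difference between the SI and the LI contrast was 2.23 with a standard error of 0.69 (95% interval 0.79 to 3.66, adjusted p = 0.404). For Id2 it was 1.19 with a standard error of 0.39 (95% interval 0.37 to 2.00, adjusted p = 0.441), and for Id3 it was 0.67 (95% interval -0.43 to 1.77, adjusted p = 0.994). Without the SI replicate 3 libraries Bmp2 at 3.31 (adjusted p = 0.00261) and Id2 at 1.47 (adjusted p = 0.0398) were called, against 2.57% of all genes called higher.

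The wider pathway was read from 7 further lists. In SI row >3 against centre cells 8 of their 48 tested genes were called by edgeR, where 7.35% of all genes tested were called higher and 5.82% lower, so that a single call in a short list lies near the share over all genes. Of 9 other BMP receptor and co-receptor genes, 1 was called lower in SI row >3 than in centre cells. This was Rgmb, a co-receptor of the repulsive guidance family, with 3415, 3139 and 1838 normalised counts in SI centre and 597, 772 and 665 in SI row >3 cells. Its log2 fold change was -2.04 with a standard error of 0.27 (adjusted p = 7.34e-05 by edgeR). In the LI Rgmb went from 1813, 1546 and 1565 to 712, 939.9 and 782, a log2 fold change of -1.01 that was not called (adjusted p = 0.315). It was called in the LI with the replicate block within site, and without the SI replicate 3 libraries (log2 fold change -1.02, adjusted p = 0.00141), a fit in which the interaction was also called at -1.24 (adjusted p = 0.00598). Acvr2a, a type II receptor gene, was not called in any of the 8 comparisons by edgeR without a block and with TMM scaling over all libraries. The replicate block over all libraries called it lower in SI than in LI centre and border cells, and total-count scaling at the border. Without the SI replicate 3 libraries it was called lower in SI than in LI centre (-0.93), border (-1.24) and row >3 cells (-0.88), and DESeq2 called it lower at the border.

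Of 11 other ligand genes, 10 could be tested and 1, Bmp8a, was called higher in SI row >3 than in centre cells. Bmp6 was not called, at 1.84 (adjusted p = 0.138 by edgeR). It was called higher with the replicate block within site and without the SI replicate 3 libraries (1.75, adjusted p = 0.0218), where 12.4% and 9.97% of all genes were. Bmp8a rose from 17.8, 7.37 and 16.8 to 106, 133 and 84.3 normalised counts, a log2 fold change of 2.94 with a standard error of 0.54 (adjusted p = 0.000929 by edgeR). Between the sites Bmp3 was higher in the SI, by 1.20 in centre (adjusted p = 0.0293) and by 1.30 in row >3 cells (adjusted p = 0.00962), with 351 to 830.3 normalised counts in SI row >3 and 188 to 232 in LI row >3 cells. The Bmp3 call in centre cells was lost when any 1 of the 6 libraries other than SI centre replicate 3 was left out (log2 fold change 1.04 to 1.41), and that in row >3 cells without SI row >3 replicate 1 (0.88) or LI row >3 replicate 2 (1.22). Bmp6 at 3.66 (adjusted p = 0.0359) and Bmp7 at 2.14 (adjusted p = 0.045) were also called higher in SI than in LI row >3 cells, although SI replicate 3 had 0 and 70.2 normalised counts of them, against 62.2 and 374 in replicate 1 and 65.6 and 488 in replicate 2. Without the SI replicate 3 libraries edgeR called both higher in the SI from centre to row >3. Bmp7 was then at 1.90, 2.75 and 2.64 and Bmp6 at 5.54, 3.11 and 4.15, where 4.51%, 3.7% and 6.8% of all genes were called higher. DESeq2 with all libraries called Bmp7, but not Bmp6, at each level, beside 2.59%, 2.9% and 4.23% of all genes. The row >3 calls by edgeR with all libraries changed with the fit. That of Bmp6 held in 7 of 16 alternatives, and it was lost without SI row >3 replicate 1 or 2 or LI row >3 replicate 1 or 2, with values from 3.01 without LI row >3 replicate 2 to 6.43 without LI row >3 replicate 3. That of Bmp7 held in 6 of 16 alternatives and, of the 6 fits without 1 library, only in that without SI row >3 replicate 3, with values from 1.70 to 2.60. Bmp4, Gdf5 and Gdf7 had 1 raw count each over all 18 libraries and Gdf6 had 0.

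Of 11 antagonist genes 8 could be tested, and Grem1, Chrdl2 and Sostdc1 had 0 counts in all libraries. Nbl1, which encodes a secreted antagonist of the DAN family, was called higher in SI row >3 than in centre cells, with 30.8, 4.6 and 23.3 normalised counts in centre and 261, 95.6 and 126 in row >3, a log2 fold change of 3.03 with a standard error of 0.63 (adjusted p = 0.00181 by edgeR). It was also higher in the SI than in the LI, by 3.53 in border (adjusted p = 0.0277) and 3.89 in row >3 cells (adjusted p = 0.00118). The Nbl1 call in border cells held in 8 of 16 alternatives and, of the 6 fits without 1 library, only in that without SI border replicate 2, and its value was 2.18 (adjusted p = 0.276) without SI border replicate 3. The call in row >3 cells held in all 16, with a value of 4.68 without LI row >3 replicate 1. Twsg1, a BMP-binding protein that acts with chordin, fell by 0.86 on the log2 scale in SI row >3 cells (adjusted p = 0.0126) and was lower than in the LI there, at -0.83 (adjusted p = 0.0377). The first Twsg1 call held in 15 of 18 alternatives and was lost without SI centre replicate 1 (-0.77) or SI row >3 replicate 1 (-0.81), and the second held in 5 of 16 and, of the 6 fits without 1 library, only in that without SI row >3 replicate 3. Nog, which encodes Noggin, had 12 raw counts in all.

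Of 9 SMAD effectors and regulators, 1 was called higher and 1 lower in SI row >3 cells. With the replicate block within site 2 were called higher, Skil and Ski, and 2 lower, Smad4 and Smad5. In that fit 12.4% of all genes were called higher and 10.5% lower. DESeq2, filterByExpr and total-count scaling also called Smad5 lower. Without a block Smad5 was at -0.43 (adjusted p = 0.0871 by edgeR) and Ski at 0.46 (adjusted p = 0.128). Smad4, the shared partner of the receptor-activated SMADs, went from 2434, 2270.0 and 2074 to 1555, 1522 and 1452 normalised counts, a log2 fold change of -0.58 with a standard error of 0.14 (adjusted p = 0.00648 by edgeR), and was lower than in LI row >3 cells, at -0.49 (adjusted p = 0.0457). This Smad4 difference between the sites was called in 5 of 16 alternatives and, of the 6 fits without 1 library, only in that without LI row >3 replicate 1, with adjusted p up to 0.678. Skil, a co-repressor that binds SMADs and is itself induced by TGF-beta signalling, rose from 845, 749 and 915 to 1914, 1255 and 1855, a log2 fold change of 1.01 with a standard error of 0.21 (adjusted p = 0.00267).

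Of 5 other BMP targets 1, Id4, was called higher in SI row >3 than in centre cells. Atoh8 went the other way, with all row >3 libraries below the centre in both sites. Its log2 fold change was -1.29 in the SI (adjusted p = 0.152 by edgeR) and -1.33 in the LI (adjusted p = 0.65). The replicate block within site called Atoh8 lower in the SI, beside 10.5% of all genes. Id4, the fourth ID gene, had 44.6, 26.7 and 42.9 normalised counts in SI centre and 477, 558 and 56.2 in SI row >3 cells, so that the rise was large in replicates 1 and 2 and small in replicate 3. Its log2 fold change was 3.27 with a standard error of 0.65 (adjusted p = 0.00244 by edgeR), and it was higher than in LI row >3 cells by 3.41 (adjusted p = 0.00532), where it had 27.3, 44 and 27.3. The first Id4 call held in 16 of 18 alternatives (adjusted p up to 0.127) and the second in 13 of 16 (adjusted p up to 0.218), and both were lost without the replicate 2 libraries. Of the 3 E proteins that ID proteins bind, Tcf3 was called lower in SI row >3 cells, at -0.75 (adjusted p = 0.0381). The Tcf3 call held in 9 of 18 alternatives, with adjusted p up to 0.209. It was lost with total counts as the only scaling and without SI centre replicate 1 or 2 or SI row >3 replicate 1 or 3, with a value of -0.52 without the last. Tcf4 at -0.47 (adjusted p = 0.095) and Tcf12 at -0.42 (adjusted p = 0.0605) also lay wholly below the centre. DESeq2, filterByExpr, the replicate block within site and the fit without SI replicate 3 called all 3 lower, and total-count scaling called Tcf4 and Tcf12. None of the 4 TGF-beta and activin receptor genes was called in any of the 8 comparisons by edgeR with TMM scaling, all libraries and no block. DESeq2 called 1 of them, Tgfbr2, lower in SI than in LI at each level, where it called 2.05%, 1.64% and 2.11% of all genes lower from centre to row >3. So did edgeR with total counts as the only scaling, with the replicate block over all libraries and without the SI replicate 3 libraries, the last with log2 fold changes of -1.75, -1.97 and -1.94 and with 6.39%, 4.4% and 5.36% of all genes called lower. The fit without SI replicate 3 also called Acvr1c lower in SI centre (-0.96) and border cells (-0.97). In the LI none of the 48 genes tested in these 7 lists was called by edgeR with TMM scaling, all libraries and no block, or by DESeq2, between row >3 and centre, with 4 at an unadjusted p under 0.05 beside 6.96% of all genes tested, or between border and centre, with 0 beside 1.38%.

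**Figure D4:**
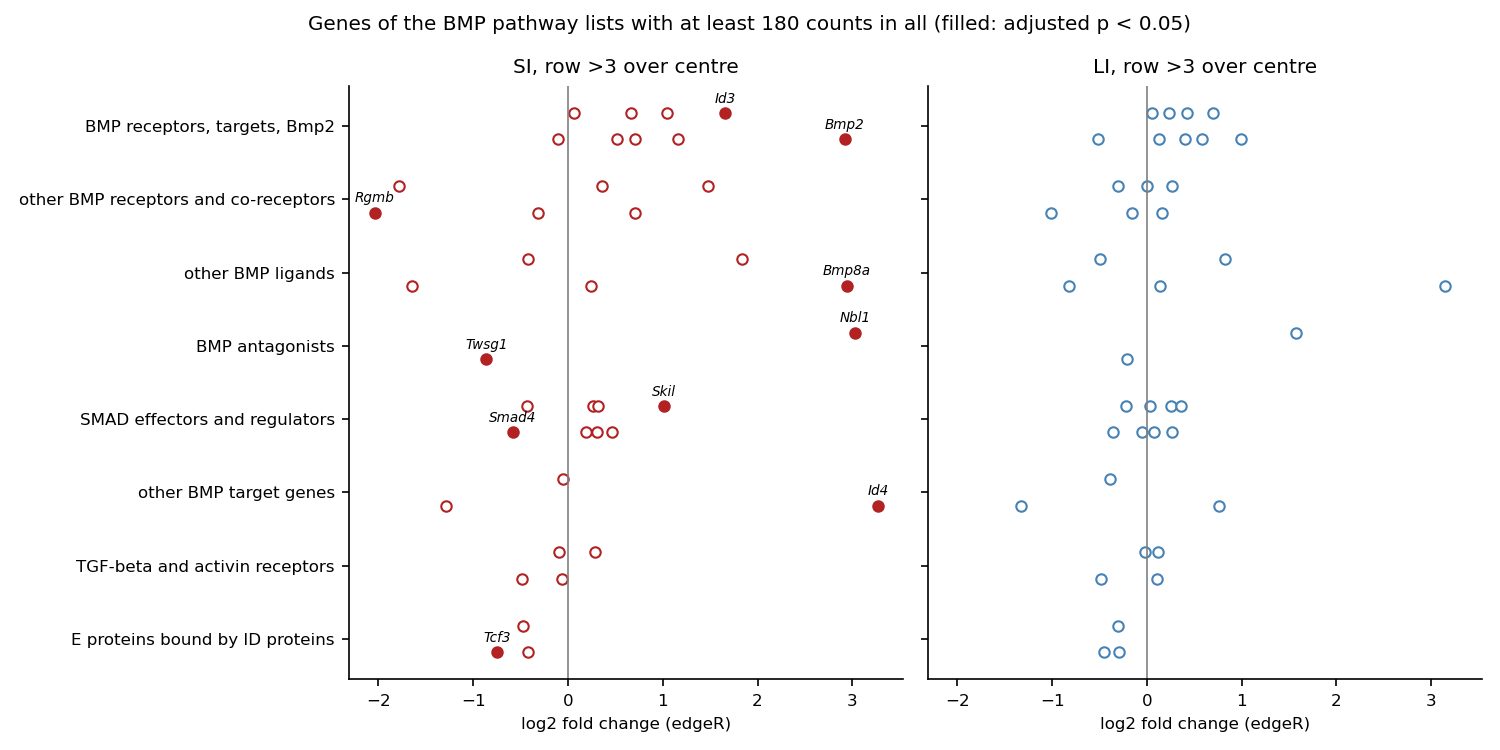
Log2 fold change of row >3 over centre (horizontal axis) in SI (left) and LI (right) for the 9 genes and for the members of the 7 further lists with enough counts to plot, filled where called by edgeR. The called points are all in the SI, from Rgmb at -2.04 to Id4 at 3.27.

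The genes whose pattern over the 18 libraries lay closest to each of the 9 were sought among 8694 genes by the root mean square difference of centred log2 CPM. Among the ligand and target genes Smad7 had the closest partner, Klc4, at 0.126, where its own standard deviation was 0.45. Klc4 and Sema4g also followed Trim3 for Smad6, at 0.241 and 0.252 after 0.239. For Bmp2, with a standard deviation of 0.91, the nearest was Mical1 at 0.338, for Id3 Ticam1 at 0.272, for Id1 Mgat4b at 0.223 and for Id2 Gdap2 at 0.221. The receptors varied so little that their nearest genes, Mettl9 for Bmpr1a at 0.124, Iars2 for Bmpr2 at 0.106 and Mark2 for Acvr1 at 0.125, say little beyond that. These are descriptions over libraries that share depth and replicate effects, with no test.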

How the data were processed

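RNA from sorted Lgr5+ cells was amplified with a stranded SMART-Seq kit and sequenced in 18 libraries, with 3 replicates for each of the 6 groups. The authors trimmed the reads and used STAR to align them to mm10 and count them per gene, and deposited the raw counts (unit: count). A further table deposited by the authors gives these counts over 1 size factor per library (unit: signal, here called normalised counts). On the values this factor was constant to a relative deviation of 5.33e-15, and genes with a summed count under 2 are left out, which leaves 24814. bcl2fastq and DESeq2 are named in the submitters' processing notes. Which annotation was used, and whether counting used strand, is not given in the sources used here. Gm38125, which overlaps Bmpr2 on the same strand, reached a group mean of 1.42 CPM, and Gm17110 and Gm17409, antisense to Bmpr1a and Acvr1, reached 0.318 and 0 CPM.

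Positions were taken from a GENCODE annotation of GRCm38 (mm10) and promoters from RefSeq. For testing, edgeR 4.0.16 (R 4.3.3) was given the raw counts of the 26717 genes with a mean above 0, TMM factors and the robust option of glmQLFit, in 1 fit of 6 groups with 12 residual degrees of freedom. DESeq2 1.42.0, whose Wald test the study used, served as an alternative. On simulated counts the edgeR fit was checked against known fold changes. Further alternatives were other filters and scalings, a replicate block within site or across sites, and fits without single libraries or sets of libraries. The block combined with leaving out SI replicate 3, and the fit without LI replicate 1, were chosen after seeing the data. Within each site all 9 pairs of libraries that share a replicate number had correlated deviations from their group means (r from 0.359 to 0.783 in the SI and from 0.443 to 0.684 in the LI), which was taken as pairing. The 3 pairs of SI and LI border libraries had r from 0.182 to 0.271, and the pairs of centre and row >3 libraries between the sites had r from -0.029 to 0.333. The 6 replicate 2 libraries had 599 to 1419 counts of the Y-linked Ddx3y and the other 12 at most 1, so the replicate numbers also differ in the sex of the mice. P-values measure the spread between replicates whose animals are not named.

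The 9 genes and the lists were chosen with earlier results of these data known. All 9 are given in every library, with the full statistics for row >3 against centre and, elsewhere, for genes called or with no overlap between groups. Of the 7 further lists, genes called in any comparison and genes with 0 counts throughout were named. A few with almost no counts and some calls of alternative fits, such as those without SI replicate 3, were added after their values were seen. Hjv was matched as Hfe2. Figures were drawn with matplotlib 3.10.9 in Python 3.11.15.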

Additional observations from a re-analysis of the deposited data

Results flagged for a closer look

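Id2 moved in opposite directions in the sites. By replicate number, row >3 minus centre was higher in 3 of 3 SI pairs (by 107, 92 and 1 normalised counts) and lower in 3 of 3 LI pairs (-149, -12 and -84). The interaction of site and level was 1.19 on the log2 scale (edgeR, unadjusted p = 0.00621, adjusted p = 0.441), so it failed the correction over all genes. Over its 24 alternatives the adjusted p ran from 0.0139 to 1, and 2 of them called it, both without the SI replicate 3 libraries.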

How the results depend on the processing

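Id3 and Bmp2 were called higher in SI row >3 than in SI centre cells under all 18 alternatives run for each, with adjusted p (edgeR or DESeq2) up to 0.0467 for Id3 and 0.0236 for Bmp2. The number of the 9 genes called in that comparison, 2, became 4 with DESeq2, with filterByExpr, with total counts as the only scaling and with the replicate block over all libraries, 5 with the replicate block within site, and 7 without SI replicate 3, with or without that block. Of all genes tested, 8.86%, 14.2%, 5.34%, 9.37%, 12.4%, 13.1% and 9.97% were called higher in these 7 fits, in that order. Leaving out 1 library at a time gave 2 to 5, with 5 without SI centre replicate 3 (7.96% of all genes). Smad7 was called in 10 of its 18 alternatives, 2 of them with 1 library left out, so the fits named here do not cover every change of this count. For SI border against centre the count of 0 became 1 with DESeq2, with the replicate block within site and without SI replicate 3, with or without the block, and 0 to 1 when 1 library was left out. For LI row >3 against centre it became 1, Id3 (adjusted p = 0.048), only in the fit that both had the replicate block and left out SI replicate 3, where 3.74% of all genes were called higher.

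For SI against LI centre the count of 1 became 0 with only those groups in the fit, without replicate 2, and without LI replicate 1, 4 without SI replicate 3, and 0 to 2 when 1 library was left out (0 without SI centre replicates 1 or 2 or LI centre replicates 1 or 3). For border cells 0 became 1 with DESeq2, with the replicate block over all libraries and without SI replicate 3. For row >3 cells 1 became 2 with that block and without SI replicate 3, 0 without replicate 2, and 0 to 1 when 1 library was left out (0 without SI row >3 replicate 1 or LI row >3 replicate 2). For the interaction 0 became 2 without SI replicate 3 (2.57% of all genes called higher) and 5 with the replicate block added to that fit (5.44%), and 0 to 1 when 1 library was left out (Bmp2 without SI centre replicate 3, with 0.757%). The replicate block changed no other count. For SI against LI no block within site could be fitted, since number and site then coincide. The cause of these changes was not tested.

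Over 49 gene results and 868 alternatives, 730 kept direction and side of the threshold, 87 lost the call, 41 gained it and 10 reversed. None of the results that reversed had been called by edgeR with TMM scaling, all libraries and no block. In that fit their values lay within 0.13 of 0, except that of Id1 in the LI, which was 0.40. Bmpr1a in SI row >3 against centre turned to 0.0043 without replicate 2. Bmpr2 turned to -0.16 with total counts only, -0.059 without SI replicate 3 and -0.067 with the block added, and ran from -0.045 to 0.21 when 1 library was left out. In the LI, Bmpr1a ran from -0.011 to 0.26 and Bmpr2 from -0.013 to 0.13, Bmpr2 turned to -0.064 with total counts only, and Id1 to -0.039 without LI replicate 1. Scaling by total counts moved the median of all genes by -0.164 in the SI and -0.107 in the LI contrast of row >3 with centre. With 29 counts in its lowest library, Bmp2 is the gene that depth limits most.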
